A study of Mus musculus with 24 samples.

Results

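Expression of 9 genes of the senescence-associated secretory phenotype was described in mouse liver: the cytokines Il1b, Tnf, Tgfb1 and Csf1, the insulin-like growth factor binding proteins Igfbp3, Igfbp4 and Igfbp7, and the growth factors Vegfa and Hgf. The genes were chosen by name. All 9 were found among the 21755 genes listed for the p16-3MR livers, and 4 of them (Igfbp3, Igfbp4, Igfbp7 and Vegfa) were readable among the 12643 labels listed for the wild-type livers, because those labels lack 9 of the lower-case letters. The labels that Il1b, Tnf, Tgfb1, Csf1 and Hgf would give fit 3 to 10 gene symbols each, so no wild-type value is given for these 5 genes.

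RNA was measured in 24 livers, 12 from p16-3MR mice and 12 from wild-type mice, and each genotype had 3 females and 3 males on GCV and as many of both sexes on VEH. In p16-3MR mice the p16 promoter drives a transgene that includes a viral thymidine kinase, so that ganciclovir (GCV) becomes toxic in cells that express p16, and the VEH group carries the same transgene and received the alkaline water vehicle. Their monthly treatment of 5 daily intraperitoneal injections began at 16 to 18 months of age, and livers were taken at about 28 months by the study's methods. Wild-type mice had no transgene, started the same injections at 6 months of age and gave their livers after 3 months. The GCV dose is 150 mg/kg in the sample labels and 25 mg/kg in the methods. The p16-3MR livers are batch 1 and the wild-type livers are batch 2, and the ages also differ, so genotype, age and batch cannot be told apart and the tables were analyzed separately.

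Senescent cells stop dividing and secrete a mixture of cytokines, growth factors and matrix proteins known as the secretory phenotype, and p16, the product of Cdkn2a, is a widely used mark of such cells. Interleukin 1 beta and tumor necrosis factor start inflammatory signaling through NF-kB, TGF-beta 1 drives stellate cells to make matrix, and CSF1 keeps macrophages alive through its receptor Csf1r. IGF-binding proteins hold insulin-like growth factors in blood and tissue, VEGF-A acts on endothelial cells, and hepatocyte growth factor acts on hepatocytes through the receptor Met. In healthy liver Il1b and Tnf come mainly from Kupffer cells and other myeloid cells, Hgf from stellate and endothelial cells, and Vegfa largely from hepatocytes.

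The libraries sequence the 3′ ends of transcripts and held 5005760 to 7160172 estimated counts in p16-3MR and 3084517 to 5667904 in wild-type livers. Levels are given as CPM, counts per 1e6 counts of the library after TMM scaling, a factor that aligns most genes between libraries, and each value is 1 liver. The limit of 3 counts equaled 0.419 to 0.599 CPM before TMM scaling in p16-3MR livers. After TMM scaling it equaled 0.293 to 2.32 CPM, highest in GCV-treated female 33. Cdkn2a itself had 0 to 7 counts in the 12 p16-3MR livers, so its level could not be compared at this depth, and Xist and 4 Y-linked genes matched the labelled sex in every p16-3MR liver. Liver markers were present throughout, with summed CPM of 6 hepatocyte genes between 24902 and 154560 in p16-3MR livers. In GCV-treated female 33, mitochondrially encoded genes held 64.0% of counts, against 12.3% to 22.4% in the other 11 livers, and its TMM factor was 0.259. In GCV-treated male 32 and VEH-treated male 24, hepatocyte markers summed to 24902 and 39557 CPM, against 74692 to 154560 in the other 10 livers, and without TMM factors they were at 44921 and 65046 CPM, above the 39974 CPM of liver 33. In the same 2 males, 8 Kupffer cell and macrophage markers summed to 3521 and 2122 CPM, against 126 to 1120.

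Promoters are shown for the 3 cytokines that were highest together in livers 32 and 24 (Il1b, Tnf and Tgfb1) and for Vegfa, which had the lowest unadjusted p-value after GCV in females. Each sequence runs 5′ to 3′ on the strand of the gene, from 250 bases before to 50 bases after the RefSeq transcription start (GRCm38.p6). Capitals mark the TATA box letters TATAAA, the GC box letters GGGCGG and, where present, the hypoxia response core ACGTG, each on either strand.
Il1b, chr2:129371090-129371389, minus strand: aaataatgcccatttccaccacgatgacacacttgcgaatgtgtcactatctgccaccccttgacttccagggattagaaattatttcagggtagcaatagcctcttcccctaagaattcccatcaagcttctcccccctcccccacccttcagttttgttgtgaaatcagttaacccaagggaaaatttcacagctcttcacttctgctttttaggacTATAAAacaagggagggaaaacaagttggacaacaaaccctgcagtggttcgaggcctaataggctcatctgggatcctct
Tnf, chr17:35201958-35202257, minus strand: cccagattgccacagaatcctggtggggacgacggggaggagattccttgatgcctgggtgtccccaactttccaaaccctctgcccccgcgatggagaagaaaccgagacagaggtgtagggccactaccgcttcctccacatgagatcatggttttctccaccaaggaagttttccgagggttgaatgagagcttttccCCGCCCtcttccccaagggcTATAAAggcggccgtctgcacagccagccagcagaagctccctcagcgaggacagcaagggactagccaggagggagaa
Tgfb1, chr7:25686752-25687051, plus strand: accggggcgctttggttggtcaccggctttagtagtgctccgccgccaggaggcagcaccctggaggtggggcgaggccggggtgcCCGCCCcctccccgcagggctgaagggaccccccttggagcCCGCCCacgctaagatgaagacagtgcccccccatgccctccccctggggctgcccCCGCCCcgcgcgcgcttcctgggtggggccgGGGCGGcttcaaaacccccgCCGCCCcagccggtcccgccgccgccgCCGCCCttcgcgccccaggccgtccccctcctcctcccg
Vegfa, chr17:46032328-46032627, minus strand: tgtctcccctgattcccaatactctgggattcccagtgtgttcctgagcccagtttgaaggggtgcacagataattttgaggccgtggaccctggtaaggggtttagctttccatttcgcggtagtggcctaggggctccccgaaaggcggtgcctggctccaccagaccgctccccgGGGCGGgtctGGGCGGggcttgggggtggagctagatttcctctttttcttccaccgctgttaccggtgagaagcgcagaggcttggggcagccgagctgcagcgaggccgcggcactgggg

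TATAAA stood 31 bases before the start of Il1b and 29 bases before that of Tnf, also 28 bases before that of Igfbp4, and 13.6% of 32851 promoters of this length hold it. Tgfb1 held 6 GC boxes in 300 bases with a GC content of 77.0%, and the Vegfa promoter shown held 2 at 62.0%. GC boxes also occurred once in Tnf and more often in Csf1 and Igfbp7, and 35.7% of promoters hold at least 1. The NF-kB motif searched was found in Csf1 only, at 1.47% of promoters, and the AP-1 letters TGANTCA in none of the 11 promoters listed for the 9 genes, at 7.81% of promoters. ACGTG was found in Igfbp7 and in a second Vegfa start further into the gene, at 19.6% of promoters. These are letter matches in fixed windows and not measured binding.

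Il1b (ENSMUSG00000027398, GRCm38 chr2:129364570-129371139, minus strand), the gene of interleukin 1 beta, spanned the widest range of the genes with counts above 3 in every p16-3MR liver. Its level was 1.74, 7.72 and 2.18 CPM in GCV-treated females 31, 33 and 35, and 3.35, 8.25 and 12.8 CPM in VEH-treated females 27, 28 and 29. In GCV-treated males 30, 32 and 34 it was 11.1, 85.3 and 4.03 CPM, and in VEH-treated males 24, 25 and 26 it was 21.6, 3.04 and 1.09 CPM. Livers 32 and 24 were the 2 highest, and the groups of each sex overlapped. Without TMM factors the female groups of Il1b did not overlap, at up to 2.16 CPM after GCV and from 3.49 CPM after VEH. Estimated counts ranged from 7 to 874, so the low livers carry a large counting error. An antisense gene, Il1bos, overlaps Il1b and had 5 counts over the 12 livers.

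Tnf (ENSMUSG00000024401, chr17:35199381-35202007, minus strand), the gene of tumor necrosis factor, was near the limit of detection in most livers. Counts were 2, 0 and 0 in GCV-treated females 31, 33 and 35, and 2, 9 and 4 in VEH-treated females 27, 28 and 29. In males, counts were 26, 130 and 0 in GCV-treated livers 30, 32 and 34, and 60, 3 and 0 in VEH-treated livers 24, 25 and 26. Only livers 30, 32 and 24 passed 10 counts, at 3.66, 12.7 and 7.0 CPM. In females, the 2 counts after GCV and the 15 after VEH gave a ratio of 0.239 on TMM-scaled depth, with an exact 95% interval of 0.0265 to 1.03 that covers counting error only.

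Tgfb1 (ENSMUSG00000002603, chr7:25687002-25705077, plus strand), the gene of TGF-beta 1, was at 5.01, 4.63 and 4.03 CPM in GCV-treated females 31, 33 and 35. In VEH-treated females 27, 28 and 29 it was at 6.03, 17.2 and 11.6 CPM, so the female groups did not overlap. Males ranged from 3.07 CPM in GCV-treated liver 34 to 57.7 CPM in GCV-treated liver 32, with liver 24 second at 39.7 CPM, and their groups overlapped.

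Csf1 (ENSMUSG00000014599, chr3:107741048-107760469, minus strand), the macrophage growth factor gene, varied least between p16-3MR livers, with an SD of 0.46 in log2 CPM over the 12 livers. Its level was 14.6 ± 6.20 CPM (SD, n = 3) in GCV-treated females and 13.8 ± 1.68 CPM in VEH-treated females. In males it was 13.5 ± 0.58 CPM after GCV and 9.11 ± 3.80 CPM after VEH. Livers 32 and 24, at 14.1 and 13.3 CPM, lay inside the range of the others.

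Igfbp3 (ENSMUSG00000020427, chr11:7206086-7213923, minus strand), the main carrier of IGF-I in blood, was highest in males 24, 32 and 30, at 74.9, 50.2 and 46.1 CPM. The other 3 males ranged from 7.11 to 24.5 CPM and the 6 females from 7.52 to 22.4 CPM. Igfbp4 (ENSMUSG00000017493, chr11:99041244-99054392, plus strand), a liver-made binding protein that restrains IGF action, was lowest in 2 of the livers where Igfbp3 was highest. It was at 513 to 1163 CPM in the 6 females and 206 to 743 CPM in the 6 males, with livers 32 and 24 lowest at 206 and 276 CPM. Without TMM factors Igfbp4 was at 371 and 454 CPM in these livers, and liver 33 was lowest at 149.6 CPM. Igfbp7 (ENSMUSG00000036256, chr5:77349240-77408041, minus strand), a secreted matrix protein that binds IGFs weakly, was at 179.8 CPM in liver 32, 102 CPM in liver 24 and 31.7 CPM in liver 33, and at 62.6 to 87.7 CPM in the other 9 livers. The last exon of Igfbp7 shares 85 bases with the end of Polr2b on the other strand, and whether counting used strand is not given in the sources used here.

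Vegfa (ENSMUSG00000023951, chr17:46016993-46032369, minus strand), the gene of VEGF-A, was at 111, 389 and 104 CPM in GCV-treated females 31, 33 and 35. In VEH-treated females 27, 28 and 29 it was at 68.2, 67.3 and 62.0 CPM, below all GCV-treated females. Males ranged from 49.3 to 87.4 CPM after GCV and from 51.0 to 77.7 CPM after VEH, with livers 32 and 24 lowest. Without TMM factors these were the 2 highest males, at 88.9 and 83.9 CPM, against 77.9 to 82.2 CPM in the other 4. Before any scaling, its counts were alike in all livers, from 435 to 620, and the 389 CPM of liver 33 came from 503 counts. Without TMM factors, the 3 GCV-treated females were at 94.2, 100.5 and 103 CPM and the 3 VEH-treated females at 71.1, 73.1 and 70.7 CPM, so the groups stayed apart on that scale with a smaller distance.

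**Figure D1:**
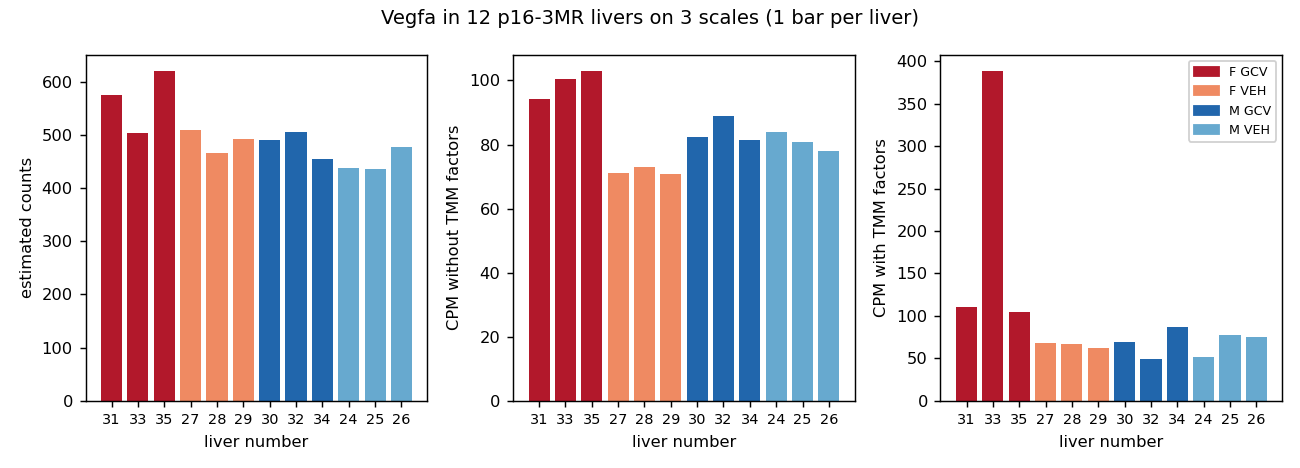
Bars show Vegfa in each of the 12 p16-3MR livers (1 bar per liver, numbered on the x axis and colored by group) as estimated counts, as CPM without TMM factors and as CPM with TMM factors. GCV-treated female 33 is at 503 counts, 100.5 CPM without and 389 CPM with TMM factors.

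Hgf (ENSMUSG00000028864, chr5:16553495-16620152, plus strand), the gene of hepatocyte growth factor, was at 2.31, 3.09 and 5.70 CPM in GCV-treated females 31, 33 and 35. It was at 12.3, 18.2 and 7.55 CPM in VEH-treated females 27, 28 and 29, without overlap. The counts behind the GCV values were 12, 4 and 34, and the 4 counts of liver 33 lie close to the limit of 3 counts. Gm43489 and Gm42975 lie within Hgf on the same strand, with 32 and 9 counts over the 12 livers. In males Hgf ranged from 1.34 to 14.3 CPM after GCV and from 3.39 to 10.04 CPM after VEH, with overlap.

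**Figure D2:**
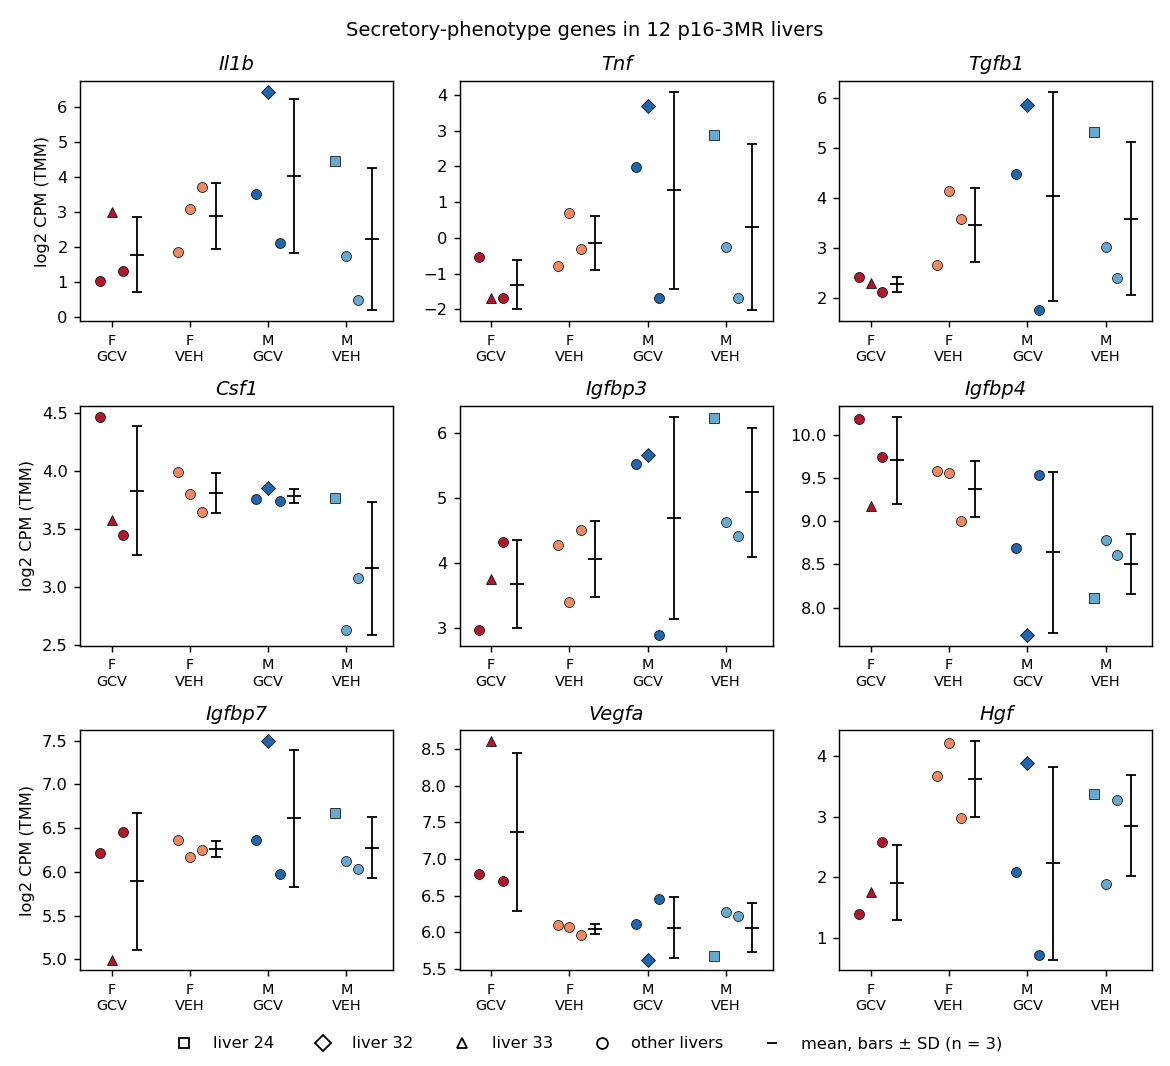
Each panel shows TMM log2 CPM of 1 gene in the 12 p16-3MR livers by sex and treatment, with livers 24, 32 and 33 marked by their own symbols and the mean ± SD of 3 livers at the right of each group. Livers 32 and 24 are at the top for Il1b, Tnf, Tgfb1, Igfbp3 and Igfbp7 and at the bottom for Igfbp4 and Vegfa, which does not hold without TMM factors.

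By mean log2 CPM, the order of the 4 groups differed from gene to gene, and neighboring groups in that order overlapped except in 2 cases. GCV-treated females were highest for Vegfa, above GCV-treated males without overlap, and lowest for Tgfb1, below VEH-treated females without overlap. GCV-treated males were highest for Il1b, Tnf, Tgfb1 and Igfbp7, with SDs of 2.19, 2.76, 2.09 and 0.79 in log2 CPM over the 3 livers.

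Livers 32 and 24 were the 2 highest of 12 for 5 of the 9 genes (Il1b, Tnf, Tgfb1, Igfbp3 and Igfbp7), which held for 13.3% of the 12409 genes with a mean of at least 10 counts. They were the 2 lowest for Igfbp4 and Vegfa, which held for 8.2% of those genes. Without TMM factors they were the 2 lowest for neither gene: Vegfa was then higher in livers 32 and 24 than in the other 4 males, and Igfbp4 was lowest in liver 33. The same 2 livers were the 2 highest for 7 of 8 Kupffer cell and macrophage markers and 3 of 6 monocyte and neutrophil markers, and for 2 of 7 sinusoidal endothelial and 2 of 7 stellate cell and fibroblast markers. Their summed monocyte and neutrophil markers were 1736 and 1048 CPM, against 58.3 to 524 in the other 10 livers, and no Kupffer cell marker was at 0 in any liver. Summed stellate cell and fibroblast markers were 1255 and 472 CPM in livers 32 and 24, against 167 to 361 in the other 10, and sinusoidal endothelial markers 493 and 307 CPM, against 125 to 262. Fewer cells of a type and less RNA per cell cannot be told apart in whole tissue, and the part of cell content in these levels was not tested.

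**Figure D3:**
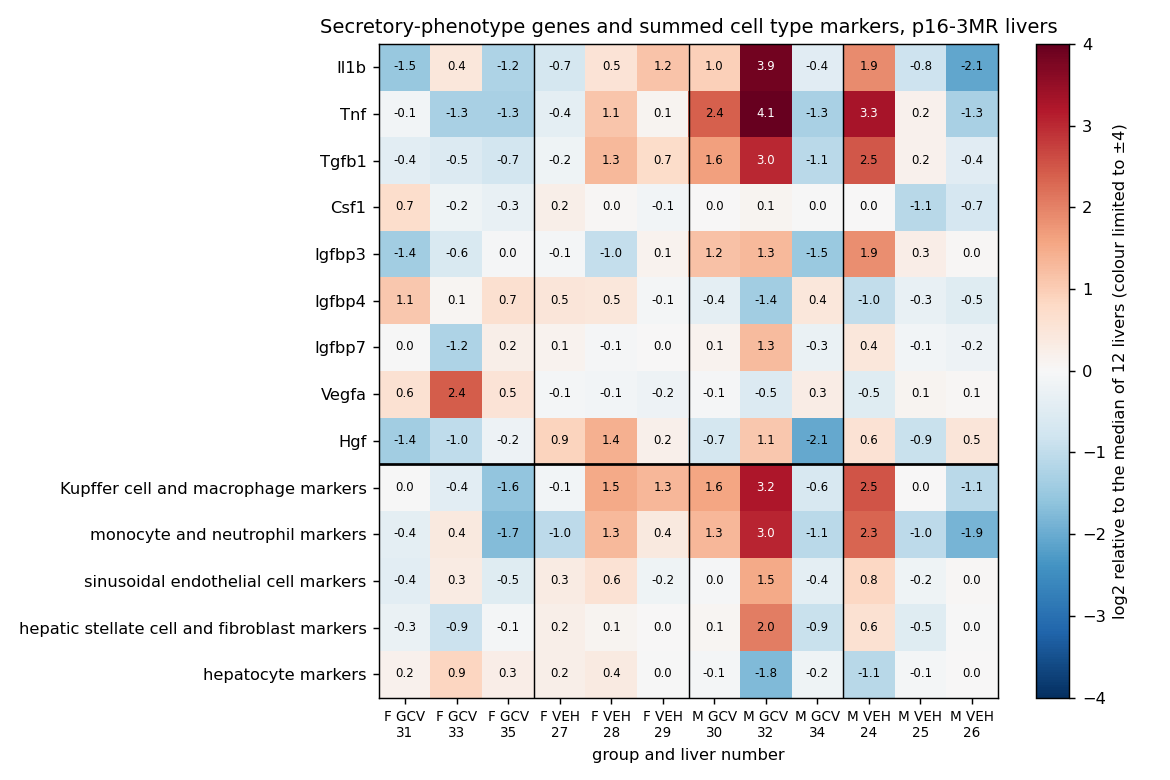
Rows show log2 levels of the 9 genes and of the summed CPM of 5 marker lists, relative to the median of the 12 p16-3MR livers, and columns show livers by group and number. The cytokine rows Il1b, Tnf and Tgfb1 and the Kupffer cell and monocyte rows are highest in livers 32 and 24, where the hepatocyte row is lowest on this TMM scale, while without TMM factors it is lowest in liver 33.

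The comparison of GCV with VEH in p16-3MR females measures GCV in mice with the transgene, which the study used to remove p16+ cells. Removal could not be read from Cdkn2a in these libraries. No gene of the 9 passed an adjusted p of 0.05 (edgeR quasi-likelihood test, Benjamini-Hochberg over 21755 genes), and 0% of all genes did. The count was also 0 with DESeq2 and with limma-voom, which called 0.701% and 0.0322% of the genes they tested, and in the other alternative fits. At an unadjusted p under 0.05 there were 2 of 9, Vegfa and Hgf, against 7.37% of all genes. Groups did not overlap for 3 of 9, Vegfa higher and Tgfb1 and Hgf lower after GCV, against 18.3% of genes with a mean of at least 10 counts. Without TMM factors Il1b joined them as lower, so that 4 of 9 did not overlap, against 25.5%. The median log2 fold change was -0.36 over the 9 genes, beside -0.05 over the genes with a mean of at least 10 counts.

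Vegfa had a log2 fold change of 1.61 (SE 0.49, 95% interval 0.54 to 2.67, adjusted p = 0.646). Without liver 33 its value was 0.64, and without TMM factors it was 0.47, where the median of all genes was -0.58. DESeq2 gave 1.67 with an adjusted p of 0.0898, the lowest over all alternatives. Hepatocyte markers summed to 94930 to 154560 CPM in GCV-treated females, highest in liver 33, and to 84035 to 108040 CPM in VEH-treated females. Without TMM factors liver 33 was the lowest of the 12 livers for these markers, at 39974 CPM, and their part in the Vegfa values was not tested. Hgf had a log2 fold change of -1.74 (SE 0.74, interval -3.33 to -0.15, adjusted p = 0.667) and stayed between -2.28 and -1.43 when each liver was left out. Summed stellate cell and fibroblast markers were 169 to 288 CPM in GCV-treated and 312 to 361 CPM in VEH-treated females. Of these markers 2 of 7 (Lrat and Dcn) were lower without overlap. Among genes with a mean of at least 10 counts, 18.3% did not overlap, higher or lower. The part of these markers in the Hgf values was not tested.

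Tgfb1 had a log2 fold change of -1.35 (SE 0.91, interval -3.30 to 0.60, adjusted p = 0.728). Kupffer cell and macrophage markers summed to 126 to 366 CPM after GCV and 344 to 1073 CPM after VEH. Of these 8 markers 4 (Vsig4, Cd5l, Adgre1 and Csf1r) were lower without overlap, beside 18.3% of genes with a mean of at least 10 counts, higher or lower. Whether that content bears on the Tgfb1 values was not tested. Il1b and Tnf had values of -1.30 (SE 1.20) and -1.98 (SE 2.04), with intervals that reach from -3.87 to 1.27 and from -6.35 to 2.40, and the fitted value of Tnf rests on the counts given above. With each liver left out, Il1b ranged from -2.11 (without liver 33) to -0.84 (without VEH-treated female 29) and Tnf from -5.22 to -1.21. Csf1, Igfbp3, Igfbp4 and Igfbp7 lay between -0.36 and 0.36, with intervals no narrower than -0.72 to 0.93. Without liver 33 alone, 0 of 9 genes had an unadjusted p under 0.05, against 4.59% of all genes in that fit. Without livers 24, 32 and 33, 4 genes reached an unadjusted p under 0.05 (Il1b at -2.09, Tgfb1 at -1.40, Hgf at -1.67 and Vegfa at 0.66), against 9.55% of all genes in that fit, which was added after seeing the data, with a lowest adjusted p of 0.329.

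In p16-3MR males no gene of the 9 passed an adjusted or an unadjusted p of 0.05, against 0% and 1.91% of all genes, and no group pair was without overlap, against 6.98%. Fold changes in log2 were 1.95 (SE 1.09, adjusted p = 1) for Il1b, 1.1 (SE 1.35) for Tnf and 0.66 (SE 0.84) for Tgfb1. The Il1b value rested on single livers, at -0.26 without GCV-treated male 32 and 4.07 without VEH-treated male 24. Without liver 24, 4 of 9 genes (Il1b, Tnf, Tgfb1 and Csf1) had an unadjusted p under 0.05, against 7.76% of all genes in that fit. Vegfa was at 0.02 with an interval of -1.02 to 1.05, and Hgf at -0.20 with an interval of -1.69 to 1.29. Csf1, at 0.56 (SE 0.38), and Igfbp7, at 0.46 (SE 0.46), lay above 0, and Igfbp3 and Igfbp4 were at -0.22 and 0.30.

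The difference between the female and male responses was tested directly as an interaction. No gene of the 9 passed an adjusted p of 0.05, against 0% of all genes, and 1 of 9 passed an unadjusted p of 0.05, against 3.78%. That count was 0 without any 1 of livers 25, 26, 28, 29 and 32, and 4 without liver 24 or liver 34. With all livers that gene was Vegfa, whose response was 1.59 log2 units higher in females (SE 0.69, interval 0.11 to 3.06, adjusted p = 0.976), and 0.64 without liver 33. For Il1b the female response was 3.26 log2 units lower (SE 1.61, interval -6.72 to 0.21, adjusted p = 0.976), and the difference was -1.11 without GCV-treated male 32 and -5.47 without VEH-treated male 24. The other 7 genes had differences between -3.08 and 0.06.

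Averaged over treatment, p16-3MR females and males did not differ past an adjusted p of 0.05 for any of the 9 genes, against 0.303% of all genes. At an unadjusted p under 0.05 there were 5 of 9, against 7.05%, and no gene separated the sexes without overlap, against 0.854% of genes with a mean of at least 10 counts. Lower in females by fitted value were Tnf at -3.42 (SE 1.22, adjusted p = 0.656), Igfbp3 at -1.29 (SE 0.47, adjusted p = 0.674) and Tgfb1 at -1.60 (SE 0.62, adjusted p = 0.685). Higher by fitted value were Igfbp4 at 0.90 (SE 0.38, adjusted p = 0.685) and Vegfa at 0.75 (SE 0.34, adjusted p = 0.686). Livers 24 and 32 are both male, and without them Tnf was at -1.05, Igfbp3 at -0.70, Tgfb1 at -0.33, Igfbp4 at 0.64 and Vegfa at 0.56, and 0 of 9 genes had an unadjusted p under 0.05, against 4.49% of all genes. The count of 5 was also 0 without liver 24 alone, 2 without liver 32 and 3 without liver 27 or liver 28, and it rose to 6 without liver 34. Vegfa was at 0.30 without liver 33 and at 0.03 without TMM factors, where Igfbp4 was at 0.54 and the median of all genes at -0.58. Il1b was at -1.72 with all livers, at -2.09 without liver 33 and at 0.37 without livers 24 and 32.

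**Figure D4:**
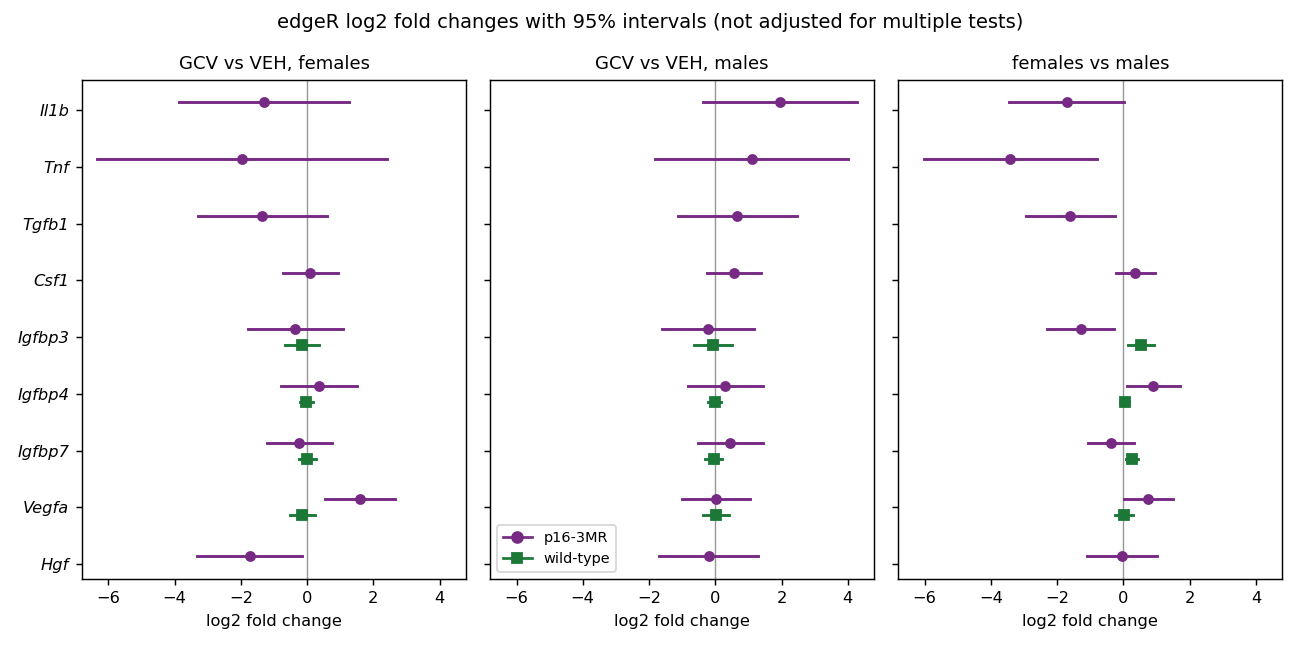
Points show log2 fold changes and lines their 95% intervals from edgeR for GCV against VEH in females, in males, and for females against males, in p16-3MR (circles) and wild-type livers (squares). In p16-3MR females the intervals of Vegfa (0.54 to 2.67) and Hgf (-3.33 to -0.15) do not reach 0 before adjustment, and wild-type intervals are narrower.

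In wild-type livers the same treatment comparison measures GCV without the transgene. Igfbp3 was at 13.6, 17.5 and 14.8 CPM in GCV-treated females 4, 5 and 6 and at 10.1, 24.6 and 16.7 CPM in VEH-treated females 4, 5 and 6. In males 1, 2 and 3 it was at 12.3, 10.1 and 10.4 CPM after GCV and 9.58, 11.4 and 12.8 CPM after VEH. Igfbp4 lay between 1152 and 1396 CPM in all 12 livers, a ratio of 1.21 between the highest and the lowest. Igfbp7 ranged from 90.9 to 129 CPM in females and from 86.0 to 102 CPM in males, and Vegfa from 38.3 to 53.1 CPM in females and from 31.1 to 54.1 CPM in males. Both treatment groups overlapped in each sex for all 4 genes. In the order of the 4 group means, neighboring groups overlapped except for Igfbp3, where GCV-treated females were above VEH-treated males.

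**Figure D5:**
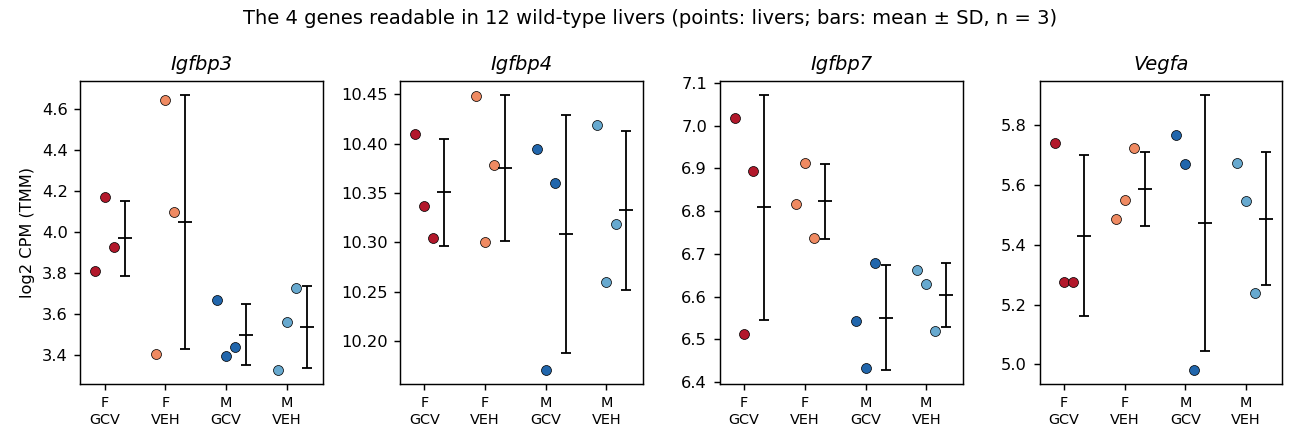
Panels show TMM log2 CPM of Igfbp3, Igfbp4, Igfbp7 and Vegfa in the 12 wild-type livers by sex and treatment, with the mean ± SD of 3 livers at the right of each group. Treatment groups of each sex overlap in every panel, and the y axes differ between panels and do not start at 0.

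None of the 4 genes passed an adjusted or unadjusted p of 0.05 after GCV in wild-type females (against 0.00791% and 4.56% of all labels), in males (0% and 5.06%) or for the difference between them (0.00791% and 4.45%). No treatment pair was without overlap, against 11.5% of labels with a mean of at least 10 counts in females and 9.67% in males. Log2 fold changes after GCV lay between -0.16 and 0.02, and the intervals were -0.52 to 0.24 for Vegfa and -0.22 to 0.17 for Igfbp4 in females. Between wild-type females and males, 0 of 4 genes were called, against 7.94% of labels, and 2 of 4 had an unadjusted p under 0.05, against 20.1%. These were Igfbp3, at 0.54 (SE 0.19, adjusted p = 0.0859), and Igfbp7, at 0.25 (SE 0.09, adjusted p = 0.0986), both higher in females, with Igfbp4 and Vegfa at 0.04 and 0.01. No gene separated the sexes without overlap, against 6.61% of labels, and without TMM factors Igfbp4 and Igfbp7 did, against 19% of labels. TMM factors were higher in wild-type females than males, and without these factors the median of all labels rose by 0.32 and Igfbp3, Igfbp4 and Igfbp7 were called, at 0.87, 0.38 and 0.58, as were 28.9% of all labels.

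The partners of these genes were read from 6 lists of 95 genes in all: the IL-1 and TNF, TGF-beta, CSF1, IGF, VEGF and HGF pathways. Of these, 93 were listed in p16-3MR livers, and none was called by edgeR in any of the 4 comparisons. In females after GCV, 4 of 93 had an unadjusted p under 0.05, against 7.37% of all genes. Spint2, an inhibitor of the proteases that activate HGF, was at 1.47 (SE 0.52, adjusted p = 0.653) and Il1r1, the receptor of IL-1, at 1.54 (SE 0.67, adjusted p = 0.667), while the endothelial receptors Kdr, which binds VEGF-A, and Tek were at -1.01 (SE 0.40, adjusted p = 0.667) and -1.13 (SE 0.45, adjusted p = 0.667). Il1r1 was at 86.8, 86.5 and 7.88 CPM after GCV and 11.5, 36.3 and 13.8 CPM after VEH, with overlap. Kdr was at 15.0, 9.27 and 16.6 CPM after GCV and 33.6, 33.3 and 17.0 CPM after VEH, without overlap. Spint2 was also without overlap, at 31.7 to 100.4 CPM after GCV and 17.9 to 25.3 CPM after VEH, and its log2 fold change was 0.94 without liver 33. Kdr is itself 1 of 7 sinusoidal endothelial markers, which summed to 125 to 216 CPM after GCV and 154 to 262 CPM after VEH. Of these 7, 3 (Fcgr2b, Kdr and Pecam1) were lower without overlap, beside 18.3% of genes with a mean of at least 10 counts, higher or lower. The part of endothelial content in the Kdr and Tek values was not tested.

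Other genes named in females by the lowest p of their list were Csf1r at -1.81 (SE 1.07) and Csf2rb, a shared cytokine receptor chain, at -1.55 (SE 1.05), the TGF-beta co-receptor Eng at -0.84 (SE 0.45), Igf1 at 1.25 (SE 0.61), the insulin receptor substrate Irs2 at -1.01 (SE 0.54), the adaptor Traf2 at 0.79 (SE 0.43) and the urokinase gene Plau, which can activate HGF, at -2.10 (SE 1.65). Without liver 33, Igf1 was at 0.57 and Traf2 at 0.41, and without VEH-treated female 29 Irs2 was at -0.32. By fitted sign, 17 of 22 IL-1 and TNF genes, 16 of 22 TGF-beta genes and 6 of 7 CSF1 genes lay below 0 in females, with medians of -0.28, -0.41 and -0.58 beside 0 over all genes. For the IGF and VEGF lists 9 of 16 and 9 of 15 lay below 0, with medians of -0.03 and -0.17, and for the HGF list 4 of 11, with a median of 0.33 that was -0.32 without TMM factors, where the median of all genes was -0.58. Over list genes with a mean of at least 10 counts, the female medians were 0.03 for the HGF list and -0.29 for the VEGF list. Csf1r is also 1 of the Kupffer cell and macrophage markers that were lower in these females, and the part of that content in the list values was not tested. In males 19 of 22 IL-1 and TNF genes and 7 of 7 CSF1 genes lay above 0, with medians of 0.55 and 1.07 beside 0.04, the other 4 lists had medians between -0.08 and 0.18, and livers 32 and 24 belong to opposite male groups. The male HGF median was -0.16 over list genes with a mean of at least 10 counts. Kupffer cell and macrophage markers summed to 241 to 3521 CPM after GCV and 178 to 2122 CPM after VEH in males. Their part in the male list values was not tested. The signs of the IL-1 and TNF and CSF1 medians were the same under all 4 scalings of the libraries in both sexes. In females without TMM factors these medians were -0.92 and -1.64, where that of all genes was -0.58. That scaling could hardly turn a negative sign, and the other alternatives moved the median of all genes little, so the equal signs say little about stability. In males 1 of 93 list genes had an unadjusted p under 0.05, against 1.91% of all genes, the placental growth factor gene Pgf with 56 counts over the 12 livers, which is named here after its value was seen. The named genes with at least 10 counts on average lay between -0.83 and 1.86 in males, with unadjusted p of 0.0677 and above.

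Between p16-3MR females and males, 10 of 93 list genes had an unadjusted p under 0.05, against 7.05% of all genes, and 8 of these had negative values, beside 967 of 1534 over all genes. The lowest p belonged to Plau at -3.91 (SE 1.04, adjusted p = 0.316) and Angpt2, an endothelial ligand of Tek, at -3.56 (SE 0.97, adjusted p = 0.341). Plau was at 70.4 and 22.5 CPM in livers 32 and 24 and at 0 to 8.93 CPM in the other 10, and its value was -1.33 without those livers, where Angpt2 was at -1.42. DESeq2 called both genes, with adjusted p of 0.00666 and 0.0246, as it did 1.28% of the genes it tested. Il1a was at -2.29 (SE 0.72), the inflammasome sensor Nlrp3 at -2.74 (SE 0.93), Tgfb2 at -1.57 (SE 0.66), Csf2ra at -1.54 (SE 0.68), Csf1r at -1.65 (SE 0.75) and Vegfb at -0.51 (SE 0.24). Without livers 24 and 32, Il1a was at -0.92, Nlrp3 at -0.34, Tgfb2 at -1.06, Csf2ra at -0.10 and Csf1r at 0.14, and Tgfb2 was at -3.95 without GCV-treated female 35. Tgfbr3 was at 0.82 (SE 0.35), the growth hormone receptor Ghr at 1.03 (SE 0.49), Igf1 at 0.86 (SE 0.43) and Hgfac, the protease that activates HGF, at 0.80 (SE 0.40). Of these, Vegfb, Ghr, Igf1 and Hgfac had an unadjusted p above 0.05 and are not among the 10. The 10 also include Il1rap, a chain of the IL-1 receptor, at -1.45 (SE 0.62, adjusted p = 0.686). Il6ra, at 0.69 (SE 0.31, adjusted p = 0.686), is the last of them, and both are named here after their values were seen. Without livers 24 and 32, Ghr was at 0.58, Igf1 at 0.56 and Hgfac at 0.40, and without liver 33 Tgfbr3 was at 0.52 and Igf1 at 0.55.

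In wild-type livers 45 list genes were readable, and 3 were called by edgeR, all between the sexes, where 7.94% of all labels were called. Il1rap, the accessory chain of the IL-1 receptor, was lower in females, at 18.3 to 31.1 CPM against 34.2 to 51.7 CPM in males (log2 fold change -0.72, SE 0.12, adjusted p = 0.00027). Without TMM factors the Il1rap value was -0.40 with an adjusted p of 0.0317, and the CPM of females and males then overlapped. Hgfac was higher in females, at 143 to 179 CPM against 109 to 132 CPM (0.33, SE 0.07, adjusted p = 0.0058, and 0.66 without TMM factors), and Spint2 was lower, at 43.5 to 61.7 CPM against 63.2 to 74.8 CPM (-0.35, SE 0.09, adjusted p = 0.0148), which without TMM factors was -0.02. No readable list gene was called after GCV in wild-type females or males, where the genes with the lowest p lay between -0.73 and 1.52. At an unadjusted p under 0.05, 3 of the 45 were higher and 3 lower in females, against 4.56% of all labels. In males 2 were higher and 1 lower, against 5.06%.

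For each of the 9 genes, the gene with the most alike order over the 12 p16-3MR livers was found among 12375 others by Spearman's rho of TMM log2 CPM. The 12 livers share their libraries' scaling, so these values are a description. Tgfb1 was most like Tfec, a transcription factor of macrophages (rho 0.993), Tnf most like the myeloid receptor Cd300e (0.968), and Il1b most like Akna and C130026I21Rik, both at 0.993. Hgf was most like Armcx5 and Ednrb, an endothelin receptor of stellate and endothelial cells, both at 0.972, and Igfbp7 most like Plxdc2 (0.951). Vegfa was most like D17Wsu92e (0.986), Igfbp4 like the amino acid transporter Slc16a10 (0.958), Igfbp3 like 2410006H16Rik (0.923) and Csf1 like the cell cycle inhibitor Cdkn2c (0.874). Without livers 24 and 32 these values lay between 0.855 and 0.988 over 10 livers. Each partner was picked for the highest rho over livers that include these 10, so the high values say little about stability. For Tnf, livers 33, 35, 34 and 26 were tied at 0 counts. In wild-type livers the most alike among 6776 readable genes were Cyp3a59 for Igfbp3 (0.888), Dhx30 for Igfbp4 (0.874), Fam129b for Igfbp7 (0.916) and Vps18 for Vegfa (0.874).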

How the data were processed

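RNA of 24 mouse livers was sequenced as 3′-end libraries (Smart-3SEQ). Per the submitters' processing notes and the study's methods, reads were checked with FastQC 0.11.9, trimmed with Trim Galore 0.6.10 and quantified with Salmon 1.10.3 on mm10, and the authors deposited a whole-number estimated count for each gene, leaving out genes under 3 reads. Whether counting used strand is not given in the sources used here. Estimated counts are already whole, so no rounding was needed.

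Each table was fitted whole with edgeR 4.0.16 in R 4.3.3 (quasi-likelihood test, TMM factors, 1 mean per group, all 12 livers), after the scripts were tested on simulated data. Calls needed an adjusted p under 0.05 (Benjamini-Hochberg over all genes of the table). Contrasts were GCV against VEH in each sex, the difference between those responses, and females against males. Levels are TMM CPM, with a prior count of 2 on the log2 scale. Labels say that groups hold separate livers, and p-values measure the spread between them. The common biological coefficient of variation was 55.8% in p16-3MR and 16.6% in wild-type livers, so wild-type values are more precise. Intervals and limits from counts cover counting error only.

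Of the 12643 wild-type labels, which lack 9 lower-case letters, 10496 fit 1 symbol, 2067 fit several and 80 fit none, and only the first kind was named. Positions come from GENCODE on GRCm38. Named were all 9 genes, up to 10 called genes per pathway list and comparison and otherwise the 2 genes with the lowest unadjusted p among those averaging at least 10 counts, and the gene most alike to each of the 9. Pathway genes of 5 comparisons without calls are given by ranges or counts only, and 1 list gene that the rule names is not reported here. The 9 genes, the lists and the tests were chosen with earlier results of these data known. Alternatives were DESeq2 1.42.0, its size factors, limma-voom (limma 3.58.1) with quality weights, other library sizes, a filter on low counts, the 6 livers of a sex, each liver left out, a replicate block, and, added after seeing the data, no TMM factors and fits without livers 24, 32 and 33.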

Additional observations from a re-analysis of the deposited data

How the results depend on the processing

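No p16-3MR fit called any of the 9 genes. In wild-type livers the count called between the sexes went from 0 to 3 without TMM factors (Igfbp3, Igfbp4 and Igfbp7) and was 0 to 1 with each liver left out (Igfbp7 without GCV-treated female 5, Igfbp3 without VEH-treated female 4). On CPM without TMM factors 2 genes separated the wild-type sexes without overlap (Igfbp4 and Igfbp7), and livers 24 and 32 were the 2 lowest for 0 genes. The values below changed sign, and the cause was not tested except where fewer livers entered. Leaving out TMM factors rescales each library as a whole, so sign changes there need not be particular to a gene. The median of all genes then went from 0 to -0.58 in p16-3MR females after GCV and from -0.07 to -0.58 between the sexes. On that scale p16-3MR females after GCV had Csf1 at -0.49, Igfbp4 at -0.14 and Traf2 at -0.048, and females against males had Csf1 at -0.22. Males after GCV had Hgf at 0.095, where the median of all genes went from 0.04 to 0.10. With limma-voom, males after GCV had Igfbp3 at 0.60 and Vegfa at -0.078, the sexes had Hgf at 0.38, and wild-type males had Igfbp4 at 0.014. Without livers 24 and 32, Igfbp3 in males was 0.25, and between the sexes Il1b was 0.37, Igfbp7 0.015, Hgf 0.73 and Csf1r 0.14. Without livers 24, 32 and 33, Igfbp7 in females was 0.039, Igfbp3 in males was 0.26, and between the sexes Il1b was 0.0085, Igfbp7 0.17, Hgf 0.76 and Csf1r 0.048. Igfbp7 in wild-type females was -0.0033 in the 6 female livers alone and -0.0096 without TMM factors.

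With each p16-3MR liver left out, values ranged in females from -0.32 to 0.31 for Csf1 and from -0.52 to 0.019 for Igfbp7. In males they ranged from -0.26 to 4.07 for Il1b, from -0.51 to 4.37 for Tnf, from -0.53 to 2.15 for Tgfb1, from -0.63 to 0.64 for Igfbp3, from -0.25 to 0.61 for Igfbp4, from -0.16 to 0.73 for Igfbp7, from -0.20 to 0.18 for Vegfa and from -1.54 to 0.27 for Hgf, and between the sexes from -0.31 to 0.57 for Hgf. With each wild-type liver left out, females ranged from -0.44 to 0.20 for Igfbp3, from -0.062 to 0.011 for Igfbp4 and from -0.10 to 0.13 for Igfbp7, males from -0.16 to 0.045 for Igfbp3, from -0.066 to 0.039 for Igfbp4, from -0.12 to 0.0029 for Igfbp7 and from -0.11 to 0.23 for Vegfa, and the sexes from -0.088 to 0.082 for Vegfa.

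Wild-type groups share replicate numbers, but same-numbered livers correlated at -0.057 to 0.0018 in females and at -0.066 to 0.28 in males. Male livers 1 and 2 correlated best with their own number, at 0.196 and 0.283, but not every liver did, so the numbers were not used as pairs. With the replicate block 0 of the 4 genes were called, Igfbp7 in females was -0.0068 and Vegfa in males -0.0041. All-label calls were 106 in females and 68 in males with the block, against 1 and 0 without it. p16-3MR groups share no numbers. Mean counts were lowest for Tnf, with 0 to 130 counts a liver, and Hgf, with 4 to 147.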
